A study of Mus musculus with 7 samples.

Results

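Cultured mouse articular chondrocytes that received BMP2 were compared directly with the same kind of cells that received TGFβ1. The comparison used 5 of the 7 libraries of the study, and it covered 13367 of the 52459 gene names in the deposited count table, those that passed a filter on low counts. The chondrocytes were released by digestion from the femoral head of mice and grown in serum-containing medium. They were given 100 ng/ml BMP2 (3 libraries), 5 ng/ml TGFβ1 (2 libraries, numbered 1 and 3) or vehicle (2 libraries) for 24 h, and total RNA was sequenced in bulk. The mice's strain, age and genotype are not stated in the labels. Each ligand was used at a single dose and a single time, and the doses differ, so a difference below is between those doses. Nothing in the labels says that libraries of a group came from separate animals or cultures, and p-values then measure only the spread between these libraries, which may be technical.

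TGFβ1 and BMP2 belong to the same family of secreted dimers and signal through pairs of type I and type II receptor kinases. TGFβ1 receptors mainly phosphorylate SMAD2 and SMAD3, BMP receptors mainly phosphorylate SMAD1, SMAD5 and SMAD9, and both branches share SMAD4 and are held back by the inhibitory SMAD6 and SMAD7. In articular cartilage, TGFβ signalling is known for keeping the lubricating surface layer and restraining hypertrophy, whereas BMP signalling is known for driving cartilage matrix synthesis and the hypertrophic, mineralising steps of the growth plate.

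Both TGFβ1 libraries differed from the other 5 in how counts were spread over transcripts of different length. Totals were 6747997 to 10686885 counts with BMP2, 16271793 and 18047765 with TGFβ1, and 6885056 and 7387051 with vehicle. Across genes, log2 levels of the TGFβ1 libraries correlated with those of the BMP2 libraries at r of 0.805 to 0.843, against 0.955 to 0.963 between BMP2 and vehicle and 0.986 between the TGFβ1 libraries themselves; genes are not independent replicates. The 88 ribosomal protein genes, whose transcripts are short, held 6.84% and 6.74% of counts with TGFβ1 and 1.11% to 1.45% in the other libraries. Whether length-dependent recovery of RNA differed between preparations was not tested, and with both TGFβ1 libraries affected it cannot be told apart from the treatment.

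The difference between the ligands therefore had to be read against transcript length. Differences are log2 fold changes of BMP2 minus TGFβ1, so that a positive value means higher with BMP2. Among the 673 tested genes whose principal transcript was at most 750 nt the median difference was -2.71, and among the 505 genes of 750 to 1000 nt it was -2.55. Among the 1019 genes of over 7000 nt the median was 0.44. A fit with a smooth offset for the length column of the table brought these 3 medians to -0.71, -1.20 and 0.14, and a fit with an offset for the length and then the GC content of the principal transcript brought them to -0.14, -0.32 and -0.06. The length column is close to the merged exons of a gene (within 1% of that sum for 89.2% of tested genes), which can be far longer than the transcript in the cells. For this reason each gene below is given with that length, and a gene is said to have passed in all 3 fits only where it had an adjusted p under 0.05 and the same sign without an offset and with each offset. That rule was chosen after the data were seen. It needs a call without an offset, where short transcripts were shifted towards TGFβ1. Short genes that were higher with BMP2 only with an offset, such as Id1 below, are therefore not counted. The length offset alone called 3925 genes higher with BMP2 and 3959 higher with TGFβ1, and the length and GC offset alone 3610 and 3738. Values with no other label are from the fit without offset. In brackets after a gene stand its length and this value, then both values with the offsets where they differ by over 1.5-fold. Counts over a ligand's libraries are given too where they are 20 or fewer and no CPM per library is given.

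**Figure D1:**
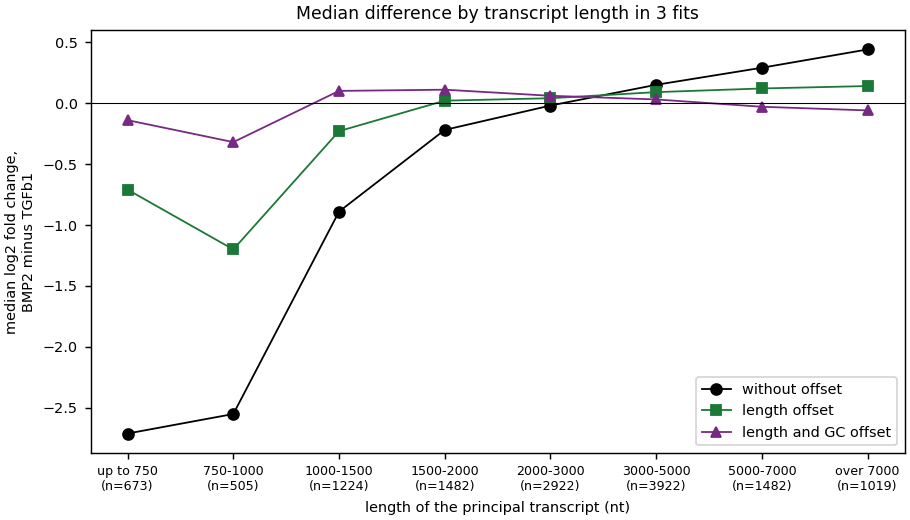
Median log2 fold change, BMP2 minus TGFb1 (vertical axis), of tested genes in 8 bins of principal transcript length in nt (horizontal axis, with the number of genes), in the fits without offset (circles), with the length offset (squares) and with the length and GC offset (triangles). Without an offset the median ran from -2.71 in the shortest bin to 0.44 in the longest, and with the length and GC offset it lay between -0.32 and 0.11.

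In the fit without offset, 3750 genes (28.1% of those tested) were higher with BMP2 and 4456 (33.3%) were higher with TGFβ1 at an adjusted p under 0.05 (edgeR quasi-likelihood test, 2-sided). Of these, 2570 (19.2% of tested genes) and 3109 (23.3%) passed in all 3 fits, which are the backgrounds for each count of list members below, and 896 and 1865 of those differed at least 2-fold. The median over all tested genes was -0.02 without offset, 0.03 with the length offset and 0.02 with the length and GC offset. Levels of the BMP2 and TGFβ1 libraries did not overlap for 73.7% of all tested genes, so non-overlap of a single gene is common here. In bulk RNA, fewer cells of a type and less RNA per cell cannot be told apart.

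Among the 12 genes ranked highest with BMP2 relative to TGFβ1, Ihh, Hey1 and Nog ranked 1, 2 and 6. Igkc, Myoc and Panx3, described further below, ranked 3, 4 and 5. Ihh (Indian hedgehog, 3048 nt; chromosome 1, 74945315 to 74951672; build GRCm38 here and below), the secreted signal of prehypertrophic chondrocytes, had TMM-scaled CPM (counts as a share of library size) of 59.3, 35.7 and 37.8 with BMP2, 0.147 and 0.305 with TGFβ1 and 3.34 and 2.27 with vehicle. All BMP2 libraries lay above vehicle and both TGFβ1 libraries below it. The difference was 7.55 ± 0.41 (SE; adjusted p = 8.41e-08), a 188-fold change whose lower end rests on 6 counts in both TGFβ1 libraries together. Hey1 (3265 nt; chromosome 3, 8663359 to 8667256), a transcription factor induced by BMP and Notch signals, stood at 59.6, 56.6 and 61.5 CPM with BMP2, 0.662 and 0.687 with TGFβ1 and 6.42 and 7.42 with vehicle. Its difference was 6.43 ± 0.18 (adjusted p = 1.67e-09), with 18 counts over both TGFβ1 libraries. Nog (noggin, 1695 nt; chromosome 11, 89300638 to 89302332), the secreted BMP antagonist, stood at 116, 99.2 and 103 CPM with BMP2, 2.35 and 3.74 with TGFβ1 and 9.76 and 7.66 with vehicle, a difference of 5.12 ± 0.20 (adjusted p = 8.1e-09). For Ihh, Hey1 and Nog the groups were apart, with BMP2 above vehicle and vehicle above TGFβ1. Their values with either offset were at least as large as without.

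The other genes at this end of the ranking were also detected with vehicle and were low with TGFβ1. Panx3 (3434 nt, 5.15), a channel protein of hypertrophic chondrocytes and osteoblasts, had a mean of 272 ± 2 CPM with BMP2 (SD, n = 3), 7.62 ± 1.39 with TGFβ1 (SD, n = 2) and 82.9 ± 1.33 with vehicle (SD, n = 2). Smpd3 (5232 nt, 4.52), the neutral sphingomyelinase needed for normal skeletal mineralisation, had 355 ± 46.9, 15.5 ± 1.47 and 264 ± 7.62 CPM in the same order. Peg10 (6667 nt, 4.75), an imprinted gene of retrotransposon origin, had 169 ± 16.2, 6.28 ± 1.6 and 134 ± 3.61 CPM, and did not differ between BMP2 and vehicle at the threshold (0.33, adjusted p = 0.178). Myoc (2074 nt, 5.20) encodes the secreted protein myocilin, and Adgrg2 (5278 nt, 4.04) encodes an adhesion G protein-coupled receptor. The inner ear matrix gene Otog (10349 nt, 5.03), the transmembrane protein gene Tmem266 (4714 nt, 4.28) and the protein kinase C gene Prkcb (7651 nt, 4.20) had 13, 16 and 12 counts in both TGFβ1 libraries together, and the value for Prkcb was 3.60 without TGFβ1 replicate 1 and 5.18 without replicate 3. Igkc (532 nt, 5.90, with the offsets 8.41 and 8.56), the immunoglobulin kappa constant region of B lineage cells, stood at 7.03, 11 and 11.1 CPM with BMP2, 0.147 and 0.153 with TGFβ1, where it rests on 4 counts, and 7.62 and 8.85 with vehicle. Among leukocyte markers, Cd3e had no counts in any library, Cd79a had 2 and 5 counts over the BMP2 and TGFβ1 libraries, and the summed level of the 9 markers was 13.8 to 17.1 CPM with BMP2, 21.4 to 31.5 with TGFβ1 and 20.5 to 28.7 with vehicle. The part of such cells in the Igkc difference was not tested.

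At the other end stood genes that were low with BMP2 and, with 1 exception given below, with vehicle, and far higher with TGFβ1. Adamtsl2 (7993 nt; chromosome 2, 27079379 to 27108981), a secreted glycoprotein that binds fibrillin and latent TGFβ binding proteins, stood at 0.858, 0.265 and 0.47 CPM with BMP2, 135 and 155 with TGFβ1 and 1.2 and 0.598 with vehicle, a difference of -7.96 ± 0.23 (adjusted p = 1.96e-09). Igf1 (9904 nt; chromosome 10, 87858265 to 87937042), the growth factor that stimulates proteoglycan synthesis in cartilage, stood at 0.944, 0.398 and 0.47 CPM with BMP2, 108 and 71.4 with TGFβ1 and 0.936 and 1.55 with vehicle, a difference of -7.12 ± 0.29 (adjusted p = 8.65e-09). Il11 (2012 nt; chromosome 7, 4772373 to 4782859), a cytokine of the interleukin 6 family and a TGFβ target in many connective tissue cells, stood at 1.37, 2.12 and 1.69 CPM with BMP2, 99.1 and 96.1 with TGFβ1 and 0.134 and 0.478 with vehicle, a difference of -5.85 ± 0.18 (adjusted p = 2.09e-09). All 3 were far above both other groups with TGFβ1. The BMP2 levels of Adamtsl2 and Igf1 rest on 17 and 19 counts over the BMP2 libraries. Il11 was also higher with BMP2 than with vehicle (2.37, adjusted p = 0.00727), but its vehicle level rests on 5 counts over the vehicle libraries. Adamtsl2 and Igf1 did not differ between BMP2 and vehicle at the threshold (adjusted p = 0.478 and 0.305).

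F13a1 (6739 nt, -6.22), the transglutaminase subunit of coagulation factor XIII, averaged 15.5 ± 0.319 CPM with BMP2 and 1150 ± 33.6 with TGFβ1. M1ap (2212 nt, -6.95), known from meiosis, averaged 7.29 ± 1.19 and 907 ± 19.1, and the cystatin gene Cst6 (3951 nt, -5.44) averaged 4.45 ± 0.562 and 194 ± 5.33. R3hdml (1094 nt) had the most negative value of those ranked, -8.39, which was -6.57 with the length offset and -6.74 with the length and GC offset. Some genes of this group have principal transcripts much shorter than the length column, and their values moved with the second offset. Fxyd2 (4005 nt, principal transcript 632 nt), a regulator of the sodium pump, had -6.38 without offset and -3.43 with length and GC taken into account. Vamp5 (2707 nt, transcript 623 nt), a vesicle fusion protein, had -6.13 and -3.16, Cystm1 (2840 nt, transcript 1050 nt) had -5.74 and -4.04, and the dehydrogenase gene Bdh2 (4250 nt, transcript 1059 nt) had -5.39 and -3.96. Each of these passed in all 3 fits. Atp6v0a4 (4973 nt, -5.45), a subunit of the vacuolar proton pump, was the exception in its relation to vehicle: it stood at 0.686, 0.398 and 0.846 CPM with BMP2, 35.9 and 23.4 with TGFβ1 and 16.7 and 14.5 with vehicle, so that most of the gap lay on the BMP2 side. Its BMP2 level rests on 20 counts.

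**Figure D2:**
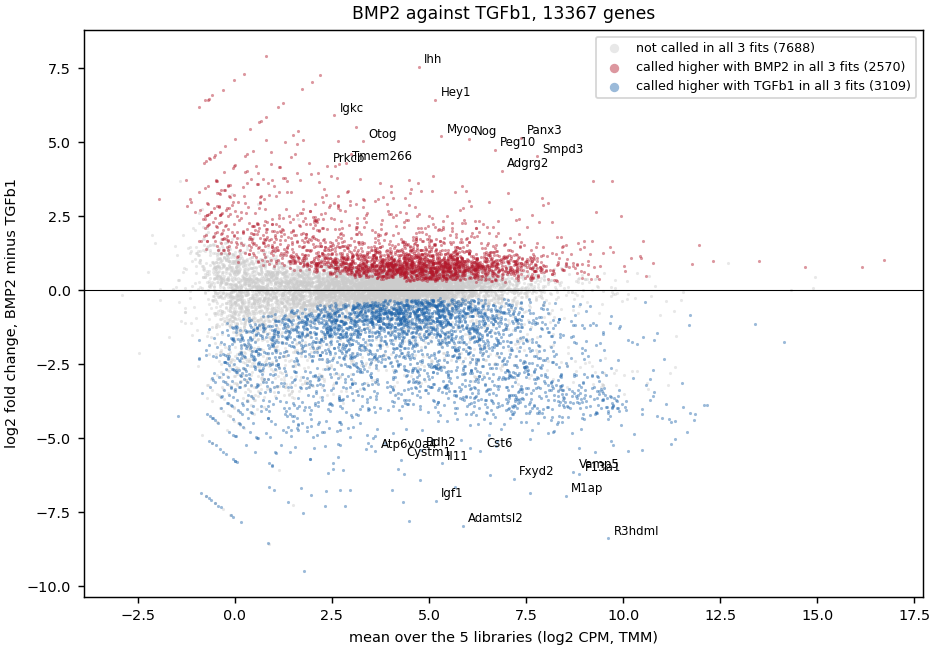
Log2 fold change, BMP2 minus TGFb1 (vertical axis, without offset), against the mean level over the 5 libraries in log2 CPM (horizontal axis) for the 13367 tested genes, with red and blue points for the 2570 and 3109 genes that passed in all 3 fits. The named points are the 12 genes at each end of the ranking, from Ihh at 7.55 to R3hdml at -8.39.

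BMP-SMAD1/5 target genes were higher with BMP2 almost throughout. Of 20 genes listed 19 were tested; 17 of the 19 passed in all 3 fits, all higher with BMP2 (the background is 19.2%), and the list's median was 2.38 against -0.02 over all tested genes. Smad6 (3205 nt), the inhibitory SMAD of the BMP branch, stood at 60.4, 58.6 and 60.9 CPM with BMP2, 13.7 and 14 with TGFβ1 and 26.7 and 24.2 with vehicle, a difference of 2.12 ± 0.11 (adjusted p = 7.72e-08). Both comparisons with vehicle passed the threshold in opposite directions, at 1.24 with BMP2 and -0.88 with TGFβ1. The pseudoreceptor gene Bambi (5040 nt, 3.35) had 103, 94.9 and 92.8 CPM with BMP2, 11.1 and 7.86 with TGFβ1 and 30 and 37.7 with vehicle, the same order. The homeobox genes Dlx2 (2855 nt, 4.59), Dlx3 (2607 nt, 4.27), Dlx5 (2263 nt, 3.71, with the offsets 4.02 and 4.41), Msx2 (3279 nt, 2.67) and Msx1 (3097 nt, 1.74) were all higher with BMP2. Dlx2 and Dlx3 rest on 14 and 14 counts over both TGFβ1 libraries. The transcription factor genes Atoh8 (2507 nt, 1.90) and Sp7 (2906 nt, 2.11) and the inhibitor of DNA binding gene Id4 (3849 nt, 2.84) differed in the same direction.

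Id1 and Id3, the most used readouts of BMP signalling, did not pass the threshold in the fit without offset. Id1 (1160 nt, principal transcript 934 nt) stood at 147, 168 and 171 CPM with BMP2, 246 and 68.3 with TGFβ1 and 76.9 and 74.4 with vehicle. The TGFβ1 libraries lay on both sides of the BMP2 libraries, and the difference was 0.04 ± 0.38 (adjusted p = 0.933). Leaving out TGFβ1 replicate 1 gave 1.24, and leaving out TGFβ1 replicate 3 gave -0.61. With the length offset the value for Id1 was 1.79 (adjusted p = 0.000485), and with the length and GC offset 2.38 (adjusted p = 4.51e-05). Id3 (1791 nt, transcript 1278 nt) stood at 475, 415 and 395 CPM with BMP2, 695 and 263 with TGFβ1 and 212 and 214 with vehicle. Its difference was -0.16 ± 0.30 (adjusted p = 0.664) without offset, 0.47 with the length offset and 0.93 with the second (adjusted p = 0.139 and 0.00373), and it was 0.70 and -0.70 without TGFβ1 replicates 1 and 3. Id2 (2438 nt) was higher with BMP2 in all 3 fits, by 0.53, 0.80 and 0.57. Leaving out TGFβ1 replicate 1 or 3 moved the value for Id2 without offset to 0.84 or 0.26, and it missed the threshold without TGFβ1 replicate 3 (adjusted p = 0.19), BMP2 replicate 2 (0.0772) or BMP2 replicate 3 (0.0624).

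Targets of the TGFβ-SMAD2/3 branch were mostly higher with TGFβ1, but some of its well known members were raised by both ligands. All 22 listed genes were tested, 14 were higher with TGFβ1 and 3 with BMP2 in all 3 fits, and the median was -0.93. Pmepa1 (4913 nt), a membrane protein that feeds back on receptor SMADs, stood at 81.9, 77.3 and 82.5 CPM with BMP2, 703 and 771 with TGFβ1 and 22.5 and 22.6 with vehicle, a difference of -3.19 ± 0.11 (adjusted p = 3.9e-09). BMP2 libraries lay between vehicle and TGFβ1, and were above vehicle by 1.84. Ltbp2 (8184 nt), a relative of the proteins that anchor latent TGFβ in matrix, stood at 12.4, 15.1 and 12 CPM with BMP2, 160 and 186 with TGFβ1 and 8.42 and 8.97 with vehicle (difference -3.72 ± 0.13). The oxidase gene Nox4 (8471 nt, -5.83, 7 counts with BMP2, -6.91 without BMP2 replicate 3), the protease gene Adam12 (10573 nt, -4.0) and the matrix regulator Ctgf (2861 nt, -1.69, with 23.2% of its exons shared with a gene on the other strand) were higher with TGFβ1. Timp1 (888 nt, transcript 883 nt), the metalloproteinase inhibitor, had -4.20 without offset and -1.97 and -1.88 with the offsets.

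The 3 members of that list that were higher with BMP2 were Smad7, Tgfbi and Tgfbr1. Smad7 (4521 nt), the inhibitory SMAD that both branches induce, stood at 72.7, 78.1 and 87.6 CPM with BMP2, 25.5 and 26.3 with TGFβ1 and 16.7 and 15.1 with vehicle. Both ligands were above vehicle (2.32 and 0.70), and the difference between them was 1.62 ± 0.12 (adjusted p = 1.2e-06). Tgfbi (3771 nt, 1.47), a secreted matrix protein named for its induction by TGFβ, had 413, 476 and 486 CPM with BMP2, 161 and 171 with TGFβ1 and 147 and 132 with vehicle. The repressor genes Ski (5562 nt, 0.05) and Tgif1 (5625 nt, -0.14) and the early response gene Klf10 (3045 nt, -0.13) did not differ at the threshold (adjusted p = 0.704, 0.449 and 0.557).

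Among ligands of the family, 4 of 16 tested genes were higher with BMP2 and 6 with TGFβ1 in all 3 fits (backgrounds of 19.2% and 23.3%). Inhba (6390 nt), the activin A subunit, stood at 10.1, 15.4 and 15.9 CPM with BMP2, 159 and 148 with TGFβ1 and 9.09 and 8.25 with vehicle, a difference of -3.48 ± 0.17. The joint morphogen gene Gdf5 (2320 nt, -4.75, 16 counts with BMP2, -5.67 without BMP2 replicate 1) averaged 0.51 ± 0.39 CPM with BMP2 and 14.7 ± 1.45 with TGFβ1, and 40.3% of its exons are shared with a gene on the other strand. Bmp7 (4019 nt, -2.50) and the procollagen C-proteinase gene Bmp1 (3757 nt, -1.17) were also higher with TGFβ1, as was Tgfb1 itself (5042 nt, -0.73). On the BMP2 side, Gdf10 (2507 nt), a divergent BMP-family ligand, stood at 262, 196 and 207 CPM with BMP2, 40.8 and 45.8 with TGFβ1 and 126 and 138 with vehicle (difference 2.36). Bmp6 (3900 nt), a BMP of hypertrophic cartilage, stood at 8.32, 5.17 and 5.36, 0.441 and 0.382 and 4.68 and 2.99 CPM (difference 3.91). For both, TGFβ1 lay below vehicle. Bmp2 (3555 nt, 0.87) and Tgfb3 (3383 nt, 0.96) were higher with BMP2 by less than 2-fold.

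Receptor genes lay on both sides. Of 13 tested, 3 were higher with BMP2 and 4 with TGFβ1 in all 3 fits (backgrounds of 19.2% and 23.3%), with a median of 0.10. The BMP type II receptor gene Bmpr2 (17983 nt, 1.28, with the offsets 0.81 and 0.53), the co-receptor gene Neo1 (8716 nt, 1.02) and the TGFβ type I receptor gene Tgfbr1 (6534 nt, 0.85) were higher with BMP2, and Tgfbr2 (8187 nt, -0.66), Tgfbr3 (6545 nt, -1.03), Eng (4048 nt, -0.79) and Acvr1b (4413 nt, -0.52), which encode the TGFβ type II receptor, betaglycan, endoglin and an activin type I receptor, were higher with TGFβ1. The call for Acvr1b (adjusted p = 0.0451) was lost when any library but vehicle replicate 2 was left out, with adjusted p from 0.0663 to 0.159. Among SMAD genes, 6 of 8 were higher with BMP2 and 0 with TGFβ1 in all 3 fits, with a median of 0.81. Smad9 (5368 nt), a receptor-regulated SMAD of the BMP branch, stood at 33, 35.8 and 37 CPM with BMP2, 3.53 and 3.74 with TGFβ1 and 26.5 and 19.5 with vehicle, a difference of 3.27 ± 0.18 (adjusted p = 7.4e-08). Its BMP2 libraries were above vehicle by 0.62 (adjusted p = 0.0212) and its TGFβ1 libraries below it by a log2 fold change of -2.65. Smad1 (6262 nt, 0.72), Smad2 (3549 nt, 0.91) and Smad4 (3712 nt, 0.50) differed by less than 2-fold, while Smad3 (5542 nt, -0.13) and Smad5 (7420 nt, 0.29) did not pass (adjusted p = 0.359 and 0.0784).

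Secreted antagonists split evenly, with 6 of 14 tested genes higher with BMP2 and 6 higher with TGFβ1 in all 3 fits. Besides noggin, the BMP2 side held Grem1 (4148 nt), another BMP antagonist, at 24.8, 38.3 and 34.9 CPM with BMP2, 6.99 and 5.5 with TGFβ1 and 7.49 and 12.8 with vehicle (difference 2.38). The BMP modulators Bmper (4833 nt, 2.42) and Chrdl1 (6758 nt, 0.95) and the membrane-bound BMP regulator Crim1 (5995 nt, 1.07) were on the same side. The TGFβ1 side held Chrdl2 (3660 nt, -3.27), the DAN-family antagonist genes Nbl1 (2033 nt, -2.69) and Dand5 (1584 nt, -1.60, with the offsets -0.83 and -1.05), chordin (5838 nt, -0.99), and the follistatin-like genes Fstl1 (4914 nt, -0.91) and Fstl3 (2445 nt, -2.07, 47.3% of exons shared with a gene on the other strand). Fst (3374 nt, 0.01), the activin-binding follistatin, did not pass without offset (adjusted p = 0.933) and had 0.07 and 1.40 with the offsets.

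**Figure D3:**
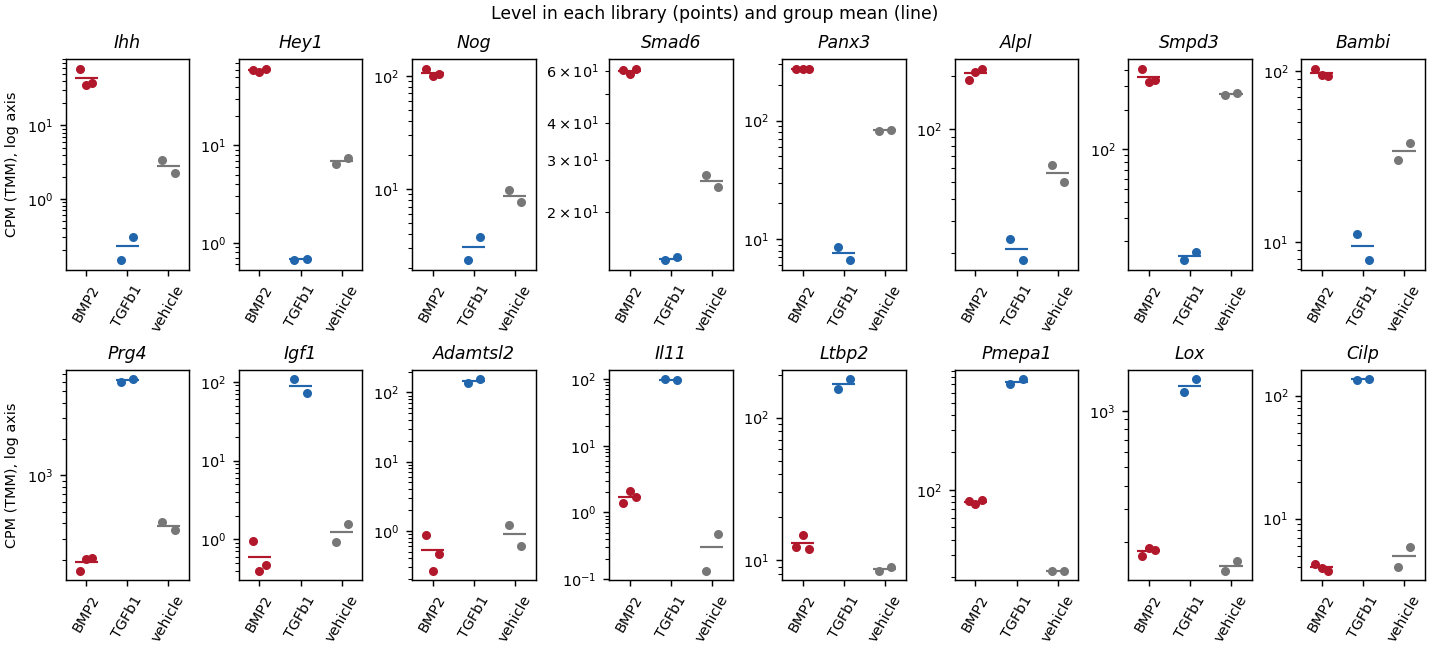
Level of 16 genes in each library in CPM (vertical log axes, a scale per gene), with points for the BMP2, TGFb1 and vehicle libraries and a line at the group mean. The 8 genes of the upper row were higher with BMP2 in all 3 libraries than in both TGFb1 libraries, as for Ihh (35.7 to 59.3 against 0.147 and 0.305), and the 8 genes of the lower row were lower.

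The 250 bases before annotated starts were read for SMAD and AP-1-like sequences, to show what the promoters of genes at both ends hold. The motifs were the SMAD3/4 palindrome GTCTAGAC, the GC-rich SMAD1/5 site GGCGCC and the AP-1-like pattern TGANTCA, each searched on both strands. Any base was allowed at N, so not every TGANTCA match is an AP-1 site. The motifs do not overlap one another. The sets were tested genes that passed in all 3 fits, differed 2-fold or more without offset and with the length offset, and had a promoter in the RefSeq table (GRCm38.p6). A gene counts where any of its promoters holds the motif, whereas for the table each promoter is counted by itself. GGCGCC was found in 24.4% of 742 genes higher with BMP2 and in 17.2% of 1610 genes higher with TGFβ1. It was found in 20.3% of the 9944 tested genes with a promoter and 9.59% of the 32851 promoters in the table. TGANTCA was found in 4.99% and 8.01% of the same sets, against 5.28% of tested genes and 6.75% of promoters. GTCTAGAC was found in 0 and 4 genes, against 0.261% of tested genes. These shares are descriptions and were not tested. Of the genes described, 4 with a promoter that holds a motif are shown. Smad9 (chr3:54755332-54755581, plus strand) has GGCGCC from 51 bases before the start. Rarres1 (chr3:67515524-67515773, minus strand) has 2 copies of it, from 134 and 65 bases before the start. Igf1 (chr10:87860861-87861110, plus strand) has GGCGCC from 128 and the TGANTCA match TGAATCA from 37 bases before the start. The downstream start of Il11 (chr7:4778142-4778391, minus strand) has the TGANTCA match TGAGTCA from 98 bases before it. Other genes described held none of the motifs, among them Ihh, Myoc and Otog on the BMP2 side. On the TGFβ1 side, Adamtsl2, R3hdml and F13a1 held none. Hey1, Nog and Prg4 had no promoter in the RefSeq table. The motifs are in capitals, and sequences run 5′ to 3′ up to the base before the start.
Smad9 promoter: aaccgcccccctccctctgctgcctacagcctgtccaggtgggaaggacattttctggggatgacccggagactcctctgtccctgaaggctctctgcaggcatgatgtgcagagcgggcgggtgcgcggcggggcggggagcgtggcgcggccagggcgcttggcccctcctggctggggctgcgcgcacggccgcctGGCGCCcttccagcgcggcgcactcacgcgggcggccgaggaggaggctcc
Rarres1 promoter: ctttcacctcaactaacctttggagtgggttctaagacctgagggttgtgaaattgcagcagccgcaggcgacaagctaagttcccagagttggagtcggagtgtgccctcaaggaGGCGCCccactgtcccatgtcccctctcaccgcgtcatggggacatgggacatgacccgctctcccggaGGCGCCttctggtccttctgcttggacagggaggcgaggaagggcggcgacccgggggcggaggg
Igf1 promoter: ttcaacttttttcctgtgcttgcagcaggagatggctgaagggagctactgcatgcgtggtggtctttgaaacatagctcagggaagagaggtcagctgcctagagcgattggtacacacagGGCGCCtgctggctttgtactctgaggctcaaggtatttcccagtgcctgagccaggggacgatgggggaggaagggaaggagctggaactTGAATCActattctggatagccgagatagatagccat
Il11 promoter: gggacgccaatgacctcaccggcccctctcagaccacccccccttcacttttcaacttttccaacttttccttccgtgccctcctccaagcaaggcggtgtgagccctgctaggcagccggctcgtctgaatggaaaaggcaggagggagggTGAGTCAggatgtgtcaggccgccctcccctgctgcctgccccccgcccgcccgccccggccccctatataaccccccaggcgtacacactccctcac

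Genes of the lubricating surface layer of cartilage were higher with TGFβ1. All 14 listed genes were tested, and 12 were higher with TGFβ1 and 1 with BMP2 in all 3 fits, with a median of -1.40. Prg4 (4280 nt; chromosome 1, 150449412 to 150466165), which encodes lubricin, stood at 162, 204 and 205 CPM with BMP2, 6010 and 6290 with TGFβ1 and 414 and 351 with vehicle, a difference of -5.02 ± 0.16 (adjusted p = 2.18e-09). BMP2 libraries were below vehicle (-1.01, adjusted p = 0.00128) and TGFβ1 libraries above it (4.01). Cilp (4252 nt), the cartilage intermediate layer protein, stood at 4.29, 3.98 and 3.76 CPM with BMP2, 135 and 136 with TGFβ1 and 4.01 and 5.86 with vehicle (difference -5.07 ± 0.15). The extracellular superoxide dismutase gene Sod3 (3738 nt, -3.31), clusterin (3437 nt, -2.96), the transcription factor genes Foxo1 (8665 nt, -1.72) and Creb5 (25021 nt, -0.91, with the offsets -1.50 and -1.47), and the hyaluronan receptor gene Cd44 (6776 nt, -1.08) were also higher with TGFβ1. For Dkk3 (3359 nt, -2.60) and Abi3bp (4735 nt, -0.87) the TGFβ1 libraries were near or below vehicle: Dkk3 stood at 1.89, 3.58 and 2.54 CPM with BMP2, 15 and 16.3 with TGFβ1 and 13.8 and 13.9 with vehicle, and Abi3bp at 53.7, 62.4 and 60.8, 102 and 114 and 183 and 170. The exception in direction was Tnc (tenascin C, 7772 nt, 1.10), and Vit (2720 nt, -0.19) did not pass (adjusted p = 0.345).

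Structural genes of hyaline cartilage were more often higher with BMP2 than with TGFβ1, and type II collagen did not differ at the threshold. Of 24 tested genes, 10 were higher with BMP2 and 3 with TGFβ1 in all 3 fits, and the median was 0.48. Sox9 (4135 nt), the master transcription factor of chondrocytes, stood at 529, 661 and 678 CPM with BMP2, 184 and 227 with TGFβ1 and 556 and 528 with vehicle, a difference of 1.60 ± 0.16 (adjusted p = 8.12e-06). Acan (7469 nt), the aggregating proteoglycan, stood at 5560, 5140 and 5430, 1790 and 1970 and 3580 and 3330 CPM, a difference of 1.52 ± 0.12 (adjusted p = 2.02e-06). In both genes the TGFβ1 libraries were below vehicle, and for Acan the BMP2 libraries were above it (0.64). Col2a1 (6001 nt) stood at 34400, 28700 and 29700 CPM with BMP2, 26900 and 32200 with TGFβ1 and 35200 and 35800 with vehicle, and the ranges of the ligands overlapped (difference 0.07 ± 0.13, adjusted p = 0.691). The link protein gene Hapln1 (5902 nt, 2.51), the matrilin genes Matn3 (3014 nt, 1.67), Matn1 (2001 nt, 1.44) and Matn4 (5174 nt, 1.63), and the minor collagen genes Col9a1 (5068 nt, 1.67), Col9a3 (3853 nt, 1.10) and Col11a1 (12744 nt, 0.99) were higher with BMP2. Comp (2967 nt), a pentameric matrix protein, differed by 0.49 ± 0.19 (adjusted p = 0.0452) and missed the threshold when BMP2 replicate 1 (0.26, adjusted p = 0.0609), TGFβ1 replicate 1 (0.183) or vehicle replicate 2 (0.0644) was left out.

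The members higher with TGFβ1 were Ucma, Cilp2 and Chad. Ucma (884 nt, transcript 847 nt), a small secreted protein of cartilage, stood at 56.1, 54.4 and 54.3 CPM with BMP2, 2650 and 1440 with TGFβ1 and 232 and 269 with vehicle. Its difference was -5.22 without offset and -2.95 and -2.77 with the offsets. Cilp2 (4314 nt, -2.90) is a relative of Cilp, and Chad (1680 nt, -2.56, with the offsets -1.89 and -2.04) encodes chondroadherin, which binds collagen and integrin. The short genes Cytl1 (1056 nt; -1.88 without offset, 0.05 and 0.14 with the offsets) and 3110079O15Rik (Snorc, 722 nt; -2.80, -0.42 and 0.03) passed only without an offset or with the first, so their direction is not resolved here. The value for Cytl1 without offset was -1.18 without TGFβ1 replicate 1.

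Hypertrophy genes did not move as a block. Of 20 tested genes, 11 were higher with BMP2 and 7 with TGFβ1 in all 3 fits, with a median of 0.77. The BMP2 side held, beside Ihh and Panx3, Col10a1 (3130 nt), the collagen of hypertrophic cartilage, at 1110, 1060 and 1080 CPM with BMP2, 356 and 445 with TGFβ1 and 502 and 494 with vehicle (difference 1.44 ± 0.13, adjusted p = 5.51e-06). Alpl (4033 nt), the tissue-nonspecific alkaline phosphatase of mineralisation, stood at 189, 210 and 219, 24 and 18.1 and 62.7 and 50.1 CPM (difference 3.29 ± 0.17). For Alpl, as for Panx3, BMP2 was above vehicle and TGFβ1 below it. The transcription factor genes Mef2c (15715 nt, 2.26) and Foxa2 (2370 nt, 2.15, 12 counts with TGFβ1), the parathyroid hormone receptor gene Pth1r (2925 nt, 0.95) and the angiogenic factor gene Vegfa (4285 nt, 0.80, with the offsets 0.80 and 3.59) were on the same side. Runx2 (8837 nt), the regulator of hypertrophy and bone formation, stood at 42.7, 40.3 and 45.5 CPM with BMP2, 26 and 25.3 with TGFβ1 and 42 and 40.9 with vehicle, a difference of 0.74 ± 0.11 (adjusted p = 0.000179) that lay on the TGFβ1 side of vehicle (-0.69, against 0.05 with BMP2).

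Later hypertrophic genes and regulators of pyrophosphate lay on the TGFβ1 side. Mmp13 (2673 nt), the collagenase of terminal hypertrophy, stood at 81.2, 98.5 and 87.2 CPM with BMP2, 245 and 299 with TGFβ1 and 321 and 337 with vehicle, a difference of -1.61 ± 0.13 (adjusted p = 2.11e-06). Here BMP2 was below vehicle (-1.89, adjusted p = 2.79e-05) and TGFβ1 did not differ from it at the threshold (-0.27, adjusted p = 0.13). The bone sialoprotein gene Ibsp (2068 nt, -0.84) showed the same order of group means, and the osteopontin gene Spp1 (1648 nt, -1.87, with the offsets -1.17 and -1.61) was also lowest with BMP2. Ank (3608 nt, -2.03) and Enpp1 (10257 nt, -1.85), which export and make the mineralisation inhibitor pyrophosphate, averaged 61.4 ± 11 and 42.3 ± 2.15 CPM with BMP2 and 251 ± 10.3 and 152 ± 7.51 with TGFβ1. Of 11 tested osteoblast genes, 6 were higher with BMP2 and 2 with TGFβ1 in all 3 fits. The former included Runx2, Sp7, Alpl, Smpd3 and Atf4 (1724 nt, 0.80, with the offsets 1.44 and 1.24), and the latter were Ibsp and the type I collagen gene Col1a1 (6563 nt, -1.22). The osteocalcin genes Bglap (618 nt, 0.47) and Bglap2 (471 nt, 0.29), short and near-identical copies, did not pass without offset and stood at 2.94 and 2.88 with the length offset.

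**Figure D4:**
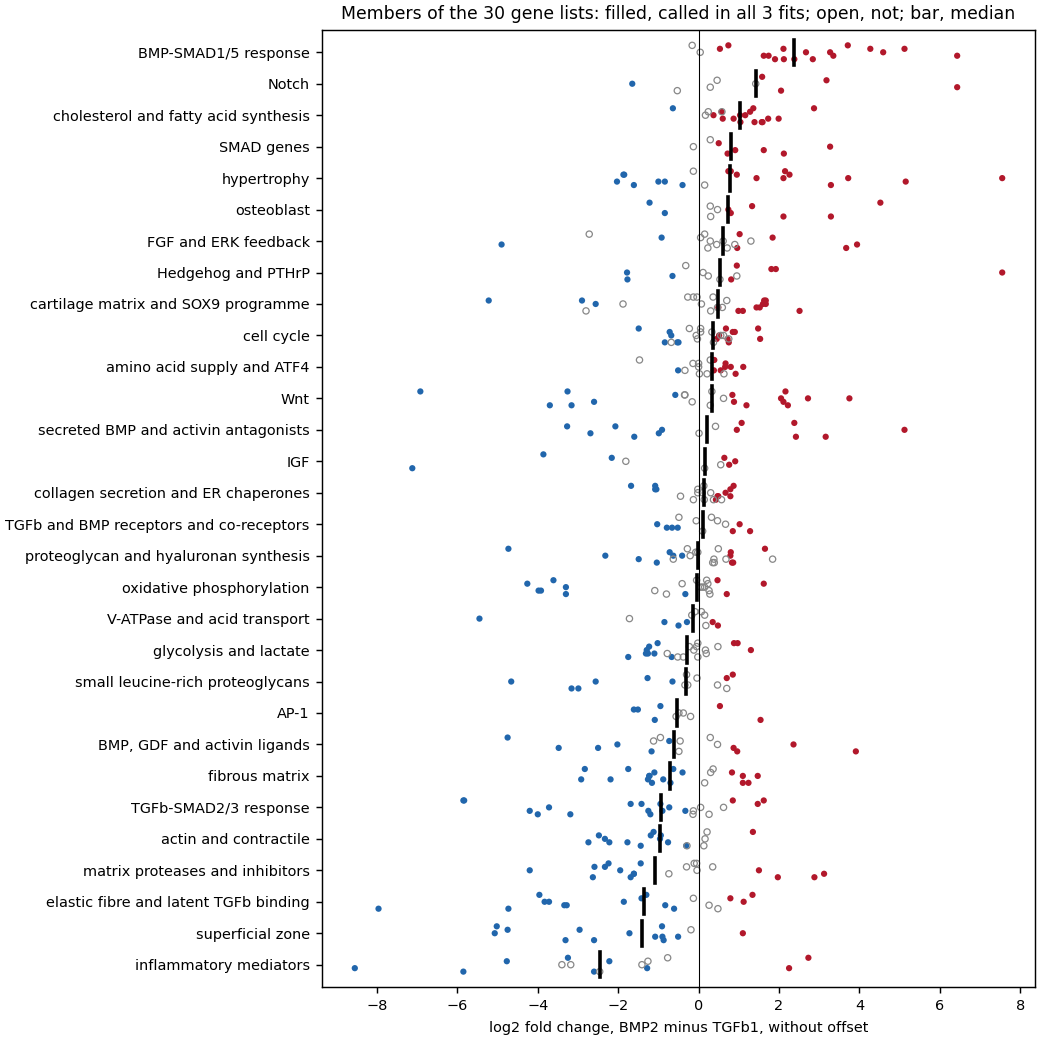
Log2 fold change, BMP2 minus TGFb1, without offset (horizontal axis), of the tested members of the 30 gene lists (vertical axis), with filled points for genes that passed in all 3 fits, open points for the rest and a bar at the list's median. The medians run from -2.46 (inflammatory mediators) to 2.38 (BMP-SMAD1/5 response), and some lists hold members that passed on both sides.

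Genes of the Hedgehog pathway lay on both sides. Of 13 tested genes, 5 were higher with BMP2 and 3 with TGFβ1 in all 3 fits (backgrounds of 19.2% and 23.3%). The receptor and pathway target Ptch1 (14185 nt) stood at 138, 125 and 136 CPM with BMP2, 36 and 34.4 with TGFβ1 and 69 and 68.4 with vehicle (difference 1.92 ± 0.11), and the target transcription factor Gli1 (4995 nt, 1.81) differed likewise. The co-receptor genes lay on both sides, with Boc (4451 nt, 0.81) higher with BMP2 and Gas1 (2961 nt, -1.78) and Cdon (7715 nt, -0.65) higher with TGFβ1. Pthlh (1619 nt, -1.77, with the offsets -1.01 and -1.34), the PTHrP ligand that opposes hypertrophy in the growth plate, was higher with TGFβ1 at 1.8, 1.59 and 1.41, 7.21 and 3.82 and 2.14 and 1.79 CPM for BMP2, TGFβ1 and vehicle.

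FGF receptor genes differed in both directions. Of 17 tested genes of FGF signalling, 5 were higher with BMP2 and 2 with TGFβ1 in all 3 fits (backgrounds of 19.2% and 23.3%). Fgfr3 (7158 nt), the FGF receptor of chondrocytes that restrains growth, stood at 1190, 841 and 832 CPM with BMP2, 69.9 and 80.5 with TGFβ1 and 368 and 372 with vehicle, a difference of 3.67 ± 0.20 (adjusted p = 7.08e-08). Fgfr4 (3542 nt, 3.94, 12 counts with TGFβ1, 3.34 without TGFβ1 replicate 1, 4.93 without TGFβ1 replicate 3) and Fgfr2 (10328 nt, 1.02) were also higher with BMP2, whereas Fgfr1 (9875 nt, -0.92) was higher with TGFβ1. Fgf21 (951 nt, transcript 951 nt), an endocrine FGF, stood at 8.32, 6.5 and 7.34 CPM with BMP2, 338 and 106 with TGFβ1 and 13.9 and 12.8 with vehicle. Its difference was -4.90 without offset, and -2.72 and -2.66 with the offsets. The value for Fgf21 without offset was -3.84 without TGFβ1 replicate 1 and -5.51 without replicate 3. In the IGF system, 3 of 9 tested genes passed in all 3 fits on each side. Igf1 with its binding protein genes Igfbp3 (3130 nt, -3.86, 9 counts with BMP2) and Igfbp7 (1209 nt, -2.16, with the offsets -0.67 and -0.92) lay on the TGFβ1 side, and Igf2 (5723 nt, 0.91), Igf2r (9438 nt, 0.64) and Igfbp5 (6006 nt, 0.76) on the BMP2 side. The exons of Igf2 are shared for 62.8% with another gene on the same strand, so its counts are uncertain.

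Notch and Wnt genes also split. Of 9 tested Notch genes, 4 were higher with BMP2 in all 3 fits, namely Hey1, the receptor gene Notch1 (14232 nt, 2.05), the ligand gene Jag2 (6965 nt, 3.18, 4 counts with TGFβ1, 2.59 without TGFβ1 replicate 1, 4.08 without TGFβ1 replicate 3) and the modifier gene Lfng (2505 nt, 1.58, 20 counts with TGFβ1), and 1 was higher with TGFβ1, the ligand gene Jag1 (5827 nt, -1.65). Lfng missed the threshold without TGFβ1 replicate 1 (1.42, adjusted p = 0.0746). The target gene Hes1 (2037 nt, -0.53) did not pass (adjusted p = 0.36). Of 21 tested Wnt genes, 9 were higher with BMP2 and 6 with TGFβ1 in all 3 fits. Frzb (3237 nt), a secreted Wnt inhibitor of articular cartilage, stood at 87.1, 79.8 and 85.3 CPM with BMP2, 12 and 13.4 with TGFβ1 and 128 and 120 with vehicle (difference 2.72 ± 0.12). The Wnt ligands Wnt11 (4137 nt, 2.22) and Wnt5a (7823 nt, 2.05), the Wnt agonist Rspo3 (3090 nt, 3.75) and the inhibitors Nkd1 (4558 nt, 2.16), Sfrp5 (1900 nt, 2.11) and Wif1 (2427 nt, 0.84) were also higher with BMP2. The ligand Wnt9a (3329 nt, -3.70, 5 counts with BMP2, -4.33 without BMP2 replicate 3) and the inhibitors Sfrp2 (2153 nt, -3.26, 7 counts with BMP2) and Sfrp4 (4179 nt, -3.16) were higher with TGFβ1. Wnt7b (4413 nt) stood at 9.93 and 9.24 CPM with TGFβ1 and had 2 counts over the 3 BMP2 libraries, too few for a fold change. The pathway target Axin2 (5506 nt, 0.29) did not pass (adjusted p = 0.222).

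Fibrous and elastic matrix genes were mostly higher with TGFβ1. In the fibrous list, 13 of 21 tested genes were higher with TGFβ1 and 5 with BMP2 in all 3 fits, with a median of -0.70. Lox (4810 nt), the enzyme that crosslinks collagen and elastin, stood at 169, 187 and 182 CPM with BMP2, 1250 and 1470 with TGFβ1 and 141 and 158 with vehicle (difference -2.92 ± 0.13, adjusted p = 1.49e-08). The collagen genes Col3a1 (9816 nt, -1.75), Col5a2 (9591 nt, -0.88) and Col5a1 (8490 nt, -0.70), fibronectin (Fn1, 11685 nt, -1.16) and the thrombospondin gene Thbs2 (5922 nt, -2.83) were on the same side. The type VI collagen genes Col6a1 (4380 nt, 1.10) and Col6a2 (8326 nt, 0.83) and the crosslinking enzyme Loxl4 (4213 nt, 1.24) were higher with BMP2. Col1a2 (12426 nt, 0.30) did not pass (adjusted p = 0.0686), in contrast to its partner chain Col1a1 (-1.22); a difference between the 2 genes was not tested. In the elastic fibre list, 12 of 18 tested genes were higher with TGFβ1 and 3 with BMP2, with a median of -1.36. Beside Adamtsl2 and Ltbp2, elastin (Eln, 8098 nt, -3.96), Fbln2 (6370 nt, -3.83), Ltbp1 (10480 nt, -3.34), Mfap2 (1211 nt, -4.73, with the offsets -3.21 and -3.02, 17 counts with BMP2) and Fbn1 (12128 nt, -1.30, 20.1% of exons shared with a gene on the other strand) were higher with TGFβ1, and Ltbp4 (6463 nt, 1.34), Efemp1 (2037 nt, 1.12) and Fbln5 (6911 nt, 0.79) were higher with BMP2.

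Contractile genes, which mark a myofibroblast-like state, were higher with TGFβ1 at modest size. Of 17 tested genes, 12 were higher with TGFβ1 and 1 with BMP2 in all 3 fits, with a median of -0.96. Acta2 (1781 nt), smooth muscle actin, stood at 26.1, 20.3 and 18.8 CPM with BMP2, 68 and 50.4 with TGFβ1 and 20.1 and 28.2 with vehicle (difference -1.44 ± 0.19, with the offsets -0.84 and -1.32). The tropomyosin gene Tpm1 (6485 nt, -2.33) and caldesmon (Cald1, 12041 nt, -1.19) were higher with TGFβ1, while the myosin light chain kinase gene Mylk (10159 nt, 1.35) was higher with BMP2. The smooth muscle gene Tagln (1988 nt, -2.22, 10 counts with BMP2) averaged 1.62 ± 0.413 CPM with TGFβ1, and 67.9% of its exons are shared with a gene on the other strand. Of markers of pericytes and smooth muscle, 2 were tested. Acta2 was higher with TGFβ1 in all 3 fits, whereas Cspg4 (11931 nt, -0.06) stood at 332, 287 and 307 CPM with BMP2, 310 and 334 with TGFβ1 and 198 and 184 with vehicle and did not pass. Myh11 and Kcnj8 had no counts in the TGFβ1 libraries. Among fibroblast and synovial markers, 2 of 4 tested genes were higher with TGFβ1 in all 3 fits, Ly6a (1205 nt; -3.92 without offset, -2.10 with length and GC) and Pdgfrb (5478 nt, -1.77), and the summed level of the 8 markers was 38 to 42.8 CPM with BMP2, 157 to 177 with TGFβ1 and 66.7 to 69.8 with vehicle. The part of such cells in the fibrous and contractile results was not tested.

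Matrix proteases and their inhibitors were higher with TGFβ1 for 10 of 20 tested genes and with BMP2 for 4 in all 3 fits, with a median of -1.09. The serine protease genes Htra1 (2879 nt, -2.59) and Htra3 (4439 nt, -2.24), the metalloproteinase genes Mmp14 (5887 nt, -1.95) and Mmp2 (3371 nt, -1.44) and the aggrecanase gene Adamts4 (4810 nt, -2.33, 15 counts with BMP2, -1.74 without BMP2 replicate 1) were on the TGFβ1 side. Adamts9 (15048 nt), a proteoglycan-cleaving protease, stood at 30.5, 29.6 and 36.1 CPM with BMP2, 3.31 and 4.05 with TGFβ1 and 28.1 and 24.2 with vehicle, on the other side (3.12 ± 0.17), together with Adamts1 (5302 nt, 1.97), Adamts14 (5197 nt, 1.50) and Mmp11 (2778 nt, 2.88). The other aggrecanase gene, Adamts5 (8091 nt, -0.11, with the offsets -0.30 and -0.73), did not pass without offset (adjusted p = 0.698).

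For inflammatory mediators the count and the median depended on the offset. Of 15 tested genes, 13 were higher with TGFβ1 and 2 with BMP2 without an offset, and 7 and 2 passed in all 3 fits; the median moved from -2.46 to -1.33 and -0.76 with the offsets. Those that passed in all 3 fits on the TGFβ1 side included the cytokines Il11 and Lif (4350 nt, -4.77, 9 counts with BMP2, -5.50 without BMP2 replicate 2, -4.15 without BMP2 replicate 3), the osteoclast regulators Tnfrsf11b (2818 nt, -2.22) and Tnfsf11 (2236 nt, -3.25, 16 counts with BMP2, -4.17 without BMP2 replicate 1), and the cyclooxygenase gene Ptgs1 (3884 nt, -2.60). Tnfrsf11b, the decoy receptor osteoprotegerin, stood at 92.9, 84.1 and 87.5 CPM with BMP2, 398 and 426 with TGFβ1 and 141 and 152 with vehicle. Chemokine genes with short transcripts did not pass in all 3 fits: Ccl2 (transcript 813 nt) went from -2.46 to -0.21 and Ccl5 (transcript 532 nt) from -3.18 (-4.09 without BMP2 replicate 1) to -0.28 with the length and GC offset. The other cyclooxygenase gene, Ptgs2 (4580 nt), was higher with BMP2 at 105, 127 and 132 CPM, against 21.8 and 29.1 with TGFβ1 and 11.5 and 7.66 with vehicle (difference 2.25 ± 0.19, adjusted p = 2.26e-06). The chemokine gene Cxcl12 (8176 nt, 2.73, 15 counts with TGFβ1, 3.63 without TGFβ1 replicate 3) was higher with BMP2 as well, with both ligands below vehicle by their group means (3.79 ± 0.0446 and 0.567 ± 0.386 CPM, against 8.56 ± 0.942).

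Enzymes that build proteoglycans and hyaluronan lay on both sides. Of 23 tested genes, 5 were higher with BMP2 and 7 with TGFβ1 in all 3 fits, against backgrounds of 19.2% and 23.3%. Sulfate supply genes were on the BMP2 side: Slc26a2 (12370 nt), the sulfate transporter of chondrocytes, stood at 734, 830 and 837 CPM with BMP2, 249 and 263 with TGFβ1 and 612 and 571 with vehicle (difference 1.65 ± 0.13), and the sulfate-activating enzymes Papss2 (3635 nt, 0.80) and Papss1 (3053 nt, 0.79) followed. The chondroitin sulfotransferase genes Chst3 (6497 nt, -2.32), Chst12 (2362 nt, -1.04) and Chst15 (6754 nt, -1.49) were higher with TGFβ1. Of the hyaluronan synthases, Has2 (4237 nt, 0.86) was higher with BMP2, and Has1 (2090 nt) stood at 6.4 and 6.64 CPM with TGFβ1 against 0, 0.133 and 0.564 with BMP2, where it rests on 7 counts. Among small leucine-rich proteoglycans, which bind collagen fibrils, 2 of 14 were higher with BMP2 (Ogn (2566 nt, 0.70) and Omd (2249 nt, 0.85)) and 6 with TGFβ1 in all 3 fits, with Aspn (2354 nt, -3.16), Podnl1 (3549 nt, -4.66) and decorin (Dcn, 5838 nt, -1.27) among them. Decorin stood at 583, 630 and 615 CPM with BMP2, 1550 and 1380 with TGFβ1 and 1530 and 1580 with vehicle, so that BMP2 was the group apart from vehicle (-1.35, adjusted p = 5.94e-05; TGFβ1 -0.08, adjusted p = 0.611).

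Genes of cholesterol and fatty acid synthesis were higher with BMP2. Of 19 tested genes, 15 were higher with BMP2 and 1 with TGFβ1 in all 3 fits (backgrounds of 19.2% and 23.3%), with medians of 1.04, 0.91 and 1.13 in the 3 fits. Scd1 (4836 nt), the stearoyl-CoA desaturase, stood at 356, 380 and 382 CPM with BMP2, 45.4 and 56.7 with TGFβ1 and 124 and 123 with vehicle, a difference of 2.87 ± 0.14 (adjusted p = 3.75e-08). It lay on opposite sides of vehicle (1.60 and -1.27). The sterol sensor partner Insig1 (3093 nt, 1.99) and the sterol synthesis genes Sqle (5546 nt, 1.73) and Hmgcs1 (4594 nt, 1.59) were higher with BMP2, as were the lipogenic genes Scd2 (5453 nt, 1.39), Elovl6 (6431 nt, 1.57) and Acaca (17074 nt, 1.04). Of adipocyte markers, which share lipid genes, Lpl (10478 nt, 3.12) and Pparg (2953 nt, 2.55) were higher with BMP2 in all 3 fits. The third tested marker, Fabp4 (4489 nt), stood at 8.49, 17.4 and 17.4 CPM with BMP2, 56.5 and 49 with TGFβ1 and 4.68 and 8.13 with vehicle, a difference of -1.89 without offset, -1.91 with the length offset and 0.01 with length and GC. The summed level of the 6 markers was 48.6 to 61.8 CPM with BMP2, 54.7 to 62.2 with TGFβ1 and 60.4 to 62.1 with vehicle. Adipoq had 1 and 2 counts over the BMP2 and TGFβ1 libraries and Cfd had none.

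Glycolytic genes lay on both sides. Of 22 tested genes, 8 were higher with TGFβ1 and 3 with BMP2 in all 3 fits (backgrounds of 23.3% and 19.2%), with a median of -0.30. Hk2 (5969 nt), the inducible hexokinase, stood at 198, 62 and 58.3 CPM with BMP2, 237 and 274 with TGFβ1 and 41.6 and 64 with vehicle (difference -1.26 ± 0.43); TGFβ1 was above vehicle (2.27) and BMP2 missed the threshold (1.01, adjusted p = 0.209). BMP2 replicate 1 stood near the TGFβ1 libraries, and without it the difference for Hk2 was -2.09 (adjusted p = 5.67e-06); it missed the threshold without BMP2 replicate 2 (adjusted p = 0.0793), BMP2 replicate 3 (0.0784) or TGFβ1 replicate 3 (0.0845). The enolase gene Eno1 (5379 nt, -1.29), the pyruvate kinase gene Pkm (5001 nt, -1.10) and the lactate exporter Slc16a3 (5318 nt, -1.23) followed. The glucose transporter gene Slc2a1 (3506 nt, 0.97) and the monocarboxylate transporter Slc16a1 (4426 nt, 1.30) were higher with BMP2. Oxidative phosphorylation genes, many of which have short transcripts, depended on the offset: 10 of 21 were higher with TGFβ1 and 3 with BMP2 without an offset. With the length offset these counts were 9 and 5, and with the length and GC offset 7 and 7. The medians were -0.05, -0.1 and 0.16 in the 3 fits, and 7 and 3 genes passed in all of them. Cox4i1 (1550 nt, transcript 765 nt), a subunit of complex IV, had -4.26 without offset, -3.43 with the length offset and -1.47 with length and GC. Longer members such as Sdha (4126 nt, -0.33) and Ndufs1 (8086 nt, 0.10, adjusted p = 0.487) differed little, and Cox5a (2101 nt) was higher with BMP2 (0.47, with the offsets 0.86 and 3.16). The calls of Sdha and Cox5a were each lost without BMP2 replicate 2 (adjusted p = 0.08 and 0.0721), BMP2 replicate 3 (0.0592 and 0.0934) or TGFβ1 replicate 3 (0.0625 and 0.163), and that of Sdha also without vehicle replicate 1 (0.0594).

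Some genes were moved by the ligands to opposite sides of vehicle. Both comparisons with vehicle use the same 2 vehicle libraries, so they are given side by side. In the fit without offset, 195 genes were above vehicle with BMP2 and below it with TGFβ1, and 148 showed the reverse, each comparison at an adjusted p under 0.05. With the length offset, 162 of the 195 and 123 of the 148 passed in both comparisons. Among genes that met the conditions of the ranking, the former were led by Ihh (3.99 with BMP2 and -3.56 with TGFβ1), Hey1 (3.09 and -3.34), Panx3 (1.71 and -3.44), the sodium-calcium exchanger gene Slc8a3 (5332 nt; 1.86 and -1.65), the retinoid-responsive gene Rarres1 (1325 nt; 2.08 and -1.53) and Bambi (1.52 and -1.83). The latter were led by Mgp (1187 nt, transcript 617 nt), the matrix Gla protein that inhibits calcification, which stood at 234, 298 and 295 CPM with BMP2, 7650 and 7470 with TGFβ1 and 1020 and 917 with vehicle. Its values from vehicle were -1.81 and 2.96, and the direct difference of -4.78 was -1.96 with length and GC taken into account. Ucma (-2.19 and 3.03), Gchfr (645 nt; -2.60 and 2.38), which regulates tetrahydrobiopterin synthesis, and the hyaluronan-degrading Cemip (12232 nt; -2.49 and 1.56) had the same pattern without offset. So did Medag (3956 nt; -1.61 and 3.10), with 36.7% of its exons shared with another gene on the same strand, and the scaffold gene Ahnak2 (14163 nt; -1.89 and 1.53). With the length offset the TGFβ1 value of Gchfr was -0.15 (adjusted p = 0.508), so that its place above vehicle with TGFβ1 was lost, and those of Mgp and Ucma were 1.43 and 0.77. The other 9 leading genes passed on both sides with that offset. The comparisons with vehicle were not fitted with the length and GC offset. The place relative to vehicle of genes with short transcripts, such as Mgp and Ucma, was therefore not tested with it.

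**Figure D5:**
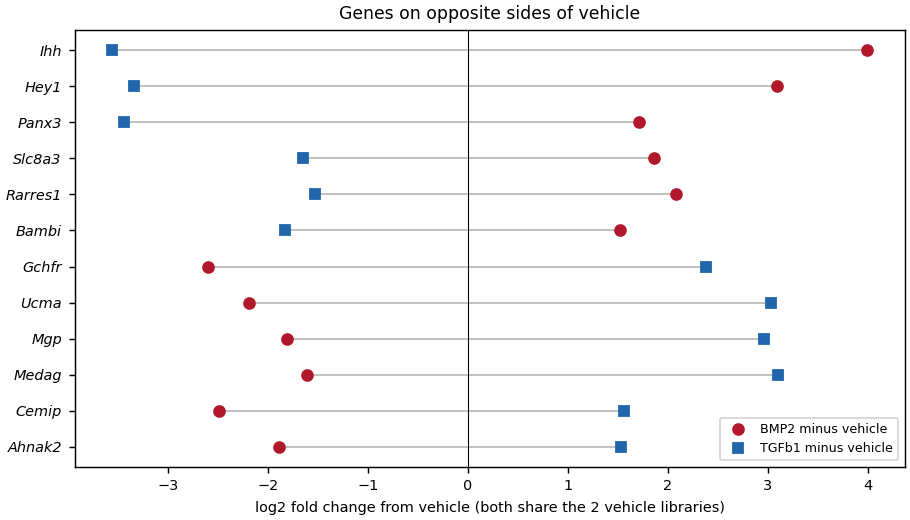
Log2 fold change from vehicle (horizontal axis) with BMP2 (red circles) and TGFb1 (blue squares) of the 6 leading genes of each pattern (vertical axis). Ihh has 3.99 with BMP2 and -3.56 with TGFb1, and Ucma has -2.19 and 3.03, all without offset; both values of a gene share the vehicle libraries.

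The called genes with the highest mean CPM, which grows with transcript length, were on the BMP2 side Acan, Col11a1, the collagen chaperone gene Serpinh1 (2443 nt, 0.87), Igf2, Comp and Lars2 (11089 nt, 0.77), whose deposited gene may take up ribosomal RNA reads and is uncertain. On the TGFβ1 side the called genes of highest mean CPM included Fn1, Timp1, Sparc, Mt1 and Nupr1. Sparc (3788 nt), a collagen-binding matrix protein, stood at 9010, 9490 and 9590 CPM with BMP2, 40200 and 22500 with TGFβ1 and 9810 and 9220 with vehicle (difference -1.74 ± 0.20, adjusted p = 2.74e-05). The metallothionein gene Mt1 (1246 nt, transcript 549 nt) went from -3.89 (-4.73 without BMP2 replicate 1) to -0.94 with the length and GC offset, and the stress gene Nupr1 (2514 nt, transcript 829 nt) from -4.38 to -1.83.

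The label of the cells was checked against markers. All 8 chondrocyte markers were tested, their summed level was 46700 to 52700 CPM with BMP2, 34200 to 40200 with TGFβ1 and 52800 to 53000 with vehicle, and 7 of them were higher with BMP2 in all 3 fits. Of the markers of other cells, some were at 0: Cd3e of T cells, Ly6g and Mpo of neutrophils, Calcr of osteoclasts, Cdh5 of endothelium, Hbb_bs of erythroid cells and Myod1 of muscle had no counts in the BMP2 or TGFβ1 libraries. Of the neutrophil markers, 3 were tested and 1 passed in all 3 fits (Ngp (1222 nt, 1.27, with the offsets 2.75 and 2.23, 11 counts with TGFβ1)), with a summed level of 4.11 to 10.4 CPM with BMP2, 4.20 to 5.81 with TGFβ1 and 1.60 to 1.79 with vehicle. With either offset all 3 tested neutrophil markers were called higher with BMP2. Of endothelial markers, the 2 that were tested went in opposite directions (Pecam1 (6228 nt, 1.85, 10 counts with TGFβ1) and Erg (3466 nt, -0.51), the latter also a gene of articular chondrocytes). The call of Ngp was lost without either TGFβ1 or either vehicle library (adjusted p from 0.0572 to 0.229), and it did not pass the count filter without BMP2 replicate 3. The call of Pecam1 was lost without TGFβ1 replicate 1 (1.57, adjusted p = 0.0746). None of 2 osteoclast and 3 skeletal muscle markers passed in all 3 fits. Of the 3 muscle markers, 2 were higher with TGFβ1 without offset and with the length offset, and 0 with the length and GC offset. The summed level of the muscle markers was 10.9 to 14.2 CPM with BMP2, 37 to 48.5 with TGFβ1 and 10.4 to 20.3 with vehicle. Other markers were well detected in each group. The protease gene Ctsk of the osteoclast list stood at 139, 107 and 99.5 CPM with BMP2, 120 and 117 with TGFβ1 and 85.4 and 91.7 with vehicle, and the lysozyme gene Lyz2 of the macrophage list at 10.4, 11.5 and 9.5 CPM with BMP2, 19.1 and 12.8 with TGFβ1 and 13.8 and 22.4 with vehicle. The summed level of the 7 osteoclast markers was 101 to 141 CPM with BMP2, 121 to 124 with TGFβ1 and 88.8 to 94 with vehicle. That of the 8 pericyte and smooth muscle markers, most of it Cspg4 and the rest Acta2, was 307 to 359, 378 to 384 and 212 to 218 CPM. The part of such cells in the results was not tested.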

How the data were processed

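Bulk RNA was sequenced from 7 chondrocyte libraries. The authors deposited 1 table of whole-number counts per gene name and library with a gene length; the values were treated as raw counts because totals differ between libraries. Cutadapt, STAR 2.4.2a, Subread, featureCounts, DESeq2 and the mm10 build are named, without role or order, per the submitters' processing notes; no source used here gives the annotation, the strand setting or how reads with several hits were handled. Where exons of opposite strands overlap by over 10%, reads may be shared.

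Genes were kept by filterByExpr (13367), scaled by TMM and fitted in edgeR 4.0.16 (R 4.3.3) with a quasi-likelihood model over all 7 libraries and a coefficient per group (4 residual degrees of freedom; biological coefficient of variation 0.133). The contrast BMP2 minus TGFβ1 had 2-sided p-values, adjusted by Benjamini-Hochberg over the 13367 genes, and a threshold of 0.05. Length was taken into account with per-library lowess offsets (span 0.15) on the deposited length, or on the length and then GC (span 0.3) of the GENCODE M21 principal transcript, found for 13229 genes. Scripts were tested on simulated counts. DESeq2 1.42.0 was an alternative. Replicate numbers 1 and 3 occur in both groups, and these libraries were not treated as pairs. Deviations of same-numbered libraries correlated at -0.027 and -0.001. With 2 TGFβ1 libraries, whose deviations mirror each other, these values cannot show whether libraries are paired.

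Genes named are the 12 at each end ranked by the smaller change of the fits without offset and with the length offset, list members, a fixed set of 18, the leading genes on opposite sides of vehicle, and the genes of highest level; further list members were named with their values in view. Some genes that this rule names are not reported here. The members and lists were chosen with earlier results of these data known. Promoters are from RefSeq (GRCm38.p6; 9944 of 13367 tested genes had one).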

Additional observations from a re-analysis of the deposited data

How the results depend on the processing

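Counts of genes higher with BMP2 and with TGFβ1 stayed within 1.5 times of 3750 and 4456 under every alternative run. They were 3346 and 3941 with DESeq2, 3892 and 4373 with DESeq2 size factors, 3838 and 4234 with the 5 libraries alone, 4139 and 5037 with no filter, 3134 and 3365 among genes of at least 2000 nt, 3925 and 3959 with the length offset and 3610 and 3738 with the length and GC offset. Leaving out each library in turn gave 3001 to 3909 and 3887 to 4564. With the replicate block the counts were 3203 and 4084; the numbers 1 and 3 are only shared labels here, and with 2 pairs it cannot be told whether they pair libraries. Of 405 called list members and named genes, 369 kept their call with the length offset and 345 with the length and GC offset, 379 did with DESeq2 and 368 with the replicate block, and only the offsets reversed any.

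Reversed genes were few, and the cause was not tested beyond the offset itself. With the length offset Fth1 (which has near-identical copies) went from -1.55 to 0.78 (1.51 without TGFβ1 replicate 1), Lyz2 from -0.61 to 0.69 (0.70), mt_Cytb from -0.83 to 0.86 (0.81, and 0.80 without replicate 3), mt_Nd1 from -0.37 to 1.72 (1.60 and 1.77) and mt_Rnr1 from -0.70 to 1.37 (1.12 and 1.57), while Macf1 went from 0.30 to -0.35 (-0.38 and -0.35). For Fth1 and Lyz2 the value without replicate 3 is not given here. Without an offset, Fth1 was at -0.54 without TGFβ1 replicate 1 and at -2.15 without replicate 3. With the length and GC offset Ddit3 went from -1.47 to 0.96, Macf1 to -0.49, mt_Nd1 to 1.19 and mt_Rnr1 to 0.74; mitochondrial transcripts have short, unspliced gene models. Over all tested genes, 101 called genes reversed with the first offset, 99 of them higher with TGFβ1 without it, and 192 with the second.

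The second offset uses the annotated principal transcript, which for Vegfa (654 nt; 0.80 became 3.59), Aldoa (741 nt) and Cox5a (645 nt) is far shorter than the length column, and it is uncertain there. Dose and preparation cannot be told apart from the ligand in this design, all groups were taken at 24 h only, and 2 TGFβ1 libraries limit what small differences can be seen.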

Other observations

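Genes of the cell cycle, the secretory pathway, AP-1 and the proton pump lay on both sides of the comparison. Those of amino acid supply were more often higher with BMP2. Of 26 tested cell cycle genes, 9 were higher with BMP2 and 6 with TGFβ1 in all 3 fits. Cdkn1a (2223 nt), the inhibitor p21, stood at 400, 412 and 423 CPM with BMP2, 1250 and 1070 with TGFβ1 and 239 and 227 with vehicle (difference -1.49 ± 0.12, edgeR adjusted p = 1.63e-06). Its relative Cdkn1c (2039 nt, 1.53) was on the other side, with 30.7% of its exons shared with an opposite-strand gene. The ribonucleotide reductase gene Rrm2 (2771 nt, 1.48) and the replication gene Mcm2 (6956 nt, 0.85) were higher with BMP2. Of the mitotic genes, Cdk1 (4934 nt, -0.68) and Ccnb1 (4217 nt, -0.50) were higher with TGFβ1, whereas Ccna2 (4083 nt, 0.68) and Ccnb2 (1531 nt, 0.45, with the offsets 1.31 and 0.81) were higher with BMP2. Without TGFβ1 replicate 1, Cdk1 was at -0.24 (adjusted p = 0.263). The calls of Ccnb1 and Ccnb2 were lost without BMP2 replicate 3 (adjusted p = 0.142 and 0.0556), TGFβ1 replicate 1 (0.136 and 0.0585) or TGFβ1 replicate 3 (0.0784 and 0.063), that of Ccnb1 without vehicle replicate 1 (0.0603) and that of Ccnb2 without BMP2 replicate 2 (0.0688). Of the AP-1 genes, 2 of 10 were higher with BMP2, Atf3 (2154 nt, 1.54) and Fosl2 (9680 nt, 0.53), and 4 with TGFβ1, Jun (3189 nt, -1.09), Fosl1 (1707 nt, -1.61, with the offsets -0.96 and -1.16, 57.2% of exons shared with a gene on the other strand), Maff (2119 nt, -1.51) and Mafk (3901 nt, -0.95). Fos (2352 nt, -0.49) and Junb (2301 nt, -0.20) did not pass (adjusted p = 0.0835 and 0.252); Junb stood at 29.3, 31 and 32.3 CPM with BMP2, 33.3 and 37.6 with TGFβ1 and 7.09 and 4.43 with vehicle.

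Of 18 tested genes of amino acid supply and the ATF4 programme, 8 were higher with BMP2 and 1 with TGFβ1 in all 3 fits, with a median of 0.33. The serine synthesis gene Psat1 (4254 nt, 1.11), the mitochondrial folate gene Mthfd2 (3487 nt, 0.92) and Atf4 itself (0.80) were on the BMP2 side, and the transporter gene Slc1a4 (3926 nt, -0.51) on the other. The call of Slc1a4 was lost without BMP2 replicate 2, BMP2 replicate 3, TGFβ1 replicate 3 or vehicle replicate 1 (adjusted p from 0.0519 to 0.142). In the collagen secretion list, 7 of 21 tested genes were higher with BMP2, with the coat proteins Sec23a (4840 nt, 0.67) and Sec24d (6325 nt, 0.79) among them. The 4 higher with TGFβ1 were the collagen-modifying enzymes P4ha3 (3135 nt, -1.68), P4ha2 (6239 nt, -1.08) and Plod1 (6765 nt, -1.08) and the disulfide isomerase Pdia6 (3745 nt, -1.05). Of 12 tested proton pump and acid transport genes, 2 were higher with BMP2 and 4 with TGFβ1 in all 3 fits; without an offset 7 were called, and 4 without TGFβ1 replicate 1. Apart from Atp6v0a4, those that passed in all 3 fits differed by less than 2-fold.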
